A study of Homo sapiens with 72 samples.

Results

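The 10 genes described here host small nucleolar RNAs (snoRNAs) in their introns and were taken by name from the series' gene tables: GAS5, SNHG1, SNHG5, SNHG6, SNHG8, SNHG12, SNHG15, SNHG16, ZFAS1 and EPB41L4A-AS1. All 10 were found among the 60279 genes of the deposited files by Ensembl gene identifier, and the annotation types each of them as a long noncoding RNA. The data were poly(A)-selected bulk RNA-seq of 72 wells of U2OS, a human osteosarcoma cell line. In 18 wells the cells received DMSO, the vehicle, and in 54 wells they received 1 of 6 small molecules at 100, 1000 or 10000 nM for 12 h, with 3 wells for each compound and dose. The doses are those of the labels, which the study's results also use, whereas its methods state the middle dose as a lower one, so the 1000 nM values and the slopes over dose rest on the labels. The compounds were triptolide, an inhibitor of transcription; homoharringtonine, an inhibitor of translation; the JNK inhibitor pyrazolanthrone; the kinase inhibitor nilotinib; the glucosidase inhibitor miglitol; and the AKT inhibitor MK-2206. All wells hold the same cell line with no genetic change between groups.

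A snoRNA host gene is transcribed as a long precursor whose introns are trimmed to snoRNAs, the guides of ribosomal RNA modification and processing, while the exons are joined into a spliced RNA. In these noncoding hosts the spliced RNA carries only short open reading frames, so that a ribosome reading the first of them stops ahead of splice junctions, which is a trigger of nonsense-mediated decay (NMD). NMD needs translation, and a short-lived RNA also depends on continued transcription. The comparison of homoharringtonine and triptolide wells therefore asks how the level of the spliced hosts differs between cells in which translation and cells in which transcription is inhibited.

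The snoRNAs themselves, most of which lack a poly(A) tail, are not what the counts measure. RefSeq places 35 snoRNAs within the 10 genes, of which 28 are box C/D and 7 are box H/ACA snoRNAs. GAS5 holds 11, SNHG1 holds 8, SNHG12 holds 4, ZFAS1 and SNHG16 hold 3 each, SNHG5 holds 2, and SNHG6, SNHG8, SNHG15 and EPB41L4A-AS1 hold 1 each. The snoRNAs of ZFAS1 and SNHG5 are shown because they make the intronic cargo visible: within each host they are similar to each other, and the letters between the boxes carry the guide sequence. Capitals mark the first TGATGA (box C) and the last CTGA (box D), and the sequences are read 5′ to 3′ on the strand of the host from GRCh38, chr20:49278945-49279023, chr20:49280313-49280415 and chr20:49280683-49280772 on the plus strand and chr6:85677294-85677368 and chr6:85677589-85677659 on the minus strand.
SNORD12C in ZFAS1: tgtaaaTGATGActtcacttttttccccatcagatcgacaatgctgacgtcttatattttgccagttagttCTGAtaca
SNORD12B in ZFAS1: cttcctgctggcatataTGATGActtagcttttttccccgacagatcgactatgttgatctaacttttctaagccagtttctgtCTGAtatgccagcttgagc
SNORD12 in ZFAS1: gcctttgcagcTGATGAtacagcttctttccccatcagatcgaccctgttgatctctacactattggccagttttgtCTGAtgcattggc
SNORD50A in SNHG5: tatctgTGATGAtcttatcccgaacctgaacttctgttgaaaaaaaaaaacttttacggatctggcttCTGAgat
SNORD50B in SNHG5: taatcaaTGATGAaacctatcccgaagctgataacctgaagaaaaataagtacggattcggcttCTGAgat

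Many hosts of snoRNAs, like ribosomal protein genes, start transcription at a C followed by pyrimidines, the 5′ terminal oligopyrimidine arrangement. RefSeq start windows (GRCh38.p14) were present for 8 of the 10 genes, and SNHG6 and SNHG15 are named only. The rule, chosen after seeing the sequences, was a C at the start base followed directly by at least 4 bases that are each C or T. It held in 3 of the 8 windows and in 4.07% of the 35116 promoter windows of the table. The GAS5 window, at chr1:173869031-173869060, lies outside the GAS5 span given below, so its lack of the motif may not describe the annotated start. A looser reading, a run of at least 5 C or T bases opened by a C within 10 bases of the start on the transcribed strand, held for 5 of the 8 and for 33.5% of all windows. The 30 bases around the start, with the 16th base as the start base and that run in capitals, are shown for these 5.
SNHG12, chr1:28581859-28581888, minus strand: tcgcggcttcagcgCCCTTTCTCCCCgccg
SNHG5, chr6:85678719-85678748, minus strand: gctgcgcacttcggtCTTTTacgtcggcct
ZFAS1, chr20:49278627-49278656, plus strand: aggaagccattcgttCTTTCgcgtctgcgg
SNHG8, chr4:118278747-118278776, plus strand: aaggcctcggCCTTTCacattcgggaagcg
SNHG16, chr17:76557749-76557778, plus strand: cgcaggggcggtctcgcgttCTTTTCgagg

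In the GENCODE v44 annotation (GRCh38), GAS5 lies at chr1:173858559-173868882 on the minus strand and SNHG12 at chr1:28578538-28583132 on the minus strand. SNHG8 spans chr4:118278703-118285316 and EPB41L4A-AS1 spans chr5:112160526-112164818, both on the plus strand. SNHG5 spans chr6:85650491-85678932, SNHG15 spans chr7:44983019-44986961, SNHG6 spans chr8:66920561-66926398 and SNHG1 spans chr11:62851978-62855953, all on the minus strand. SNHG16 spans chr17:76557727-76670985 and ZFAS1 spans chr20:49278178-49299600, both on the plus strand. The reference transcripts of the 10 genes had 3 to 12 exons. In these transcripts the open reading frame from the first ATG was 3 codons in SNHG15, 5 in SNHG12, 12 in SNHG5, 19 in SNHG6, 25 in ZFAS1, 26 in EPB41L4A-AS1, 33 in SNHG16, 50 in GAS5, 52 in SNHG8 and 57 in SNHG1. At least 1 exon junction lay more than 50 bases behind the stop of that frame in all 10, with 1 in SNHG15, 2 in SNHG6, SNHG8, SNHG16, ZFAS1 and EPB41L4A-AS1, 5 in GAS5, SNHG5 and SNHG12 and 7 in SNHG1. Only the SNHG15 and ZFAS1 transcripts are among those listed in the deposited files, whose annotation was another release, so these features describe the genes and not the isoforms quantified.

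The libraries held 0.0704 to 68.3 mil expected counts, with a median of 38.3 mil. The 3 libraries under 10 mil were DMSO replicate 10 (0.459 mil), triptolide 100 nM replicate 2 (0.0704 mil) and triptolide 1000 nM replicate 1 (9.52 mil). In the DMSO wells the mesenchymal markers VIM, COL1A1, SPARC and RUNX2 had median TPM of 1868, 452, 2137 and 3.81, while COL1A2 was near 0 (0.07 TPM). PTPRC (0.035 TPM), CDH1 (0.4 TPM) and ALB (0.0 TPM) were at or near 0 and EPCAM had 2.38 TPM. Of the mesenchymal markers checked, COL1A2 was the one near absent. The 13 mitochondrially encoded mRNAs took 0.138% to 0.367% of the counts in DMSO, 0.156% to 0.285% with homoharringtonine and 0.521% to 1.15% with triptolide.

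Levels between genes were compared in TPM, which is per transcript length. In DMSO, ZFAS1 was at the top with a median of 194 TPM (range 142 to 271 over 18 wells), followed by SNHG16 at 181 TPM (124 to 264), SNHG8 at 148 TPM (83.9 to 226) and GAS5 at 123 TPM (66.1 to 184). SNHG6 had a median of 94.1 TPM (78.5 to 147). The lower members were SNHG15 at 55.1 TPM (35.2 to 71.7), SNHG1 at 52.6 TPM (23.2 to 105), SNHG5 at 35.6 TPM (7.42 to 53.6), SNHG12 at 15.8 TPM (11.3 to 43.1) and EPB41L4A-AS1 at 13.8 TPM (7.11 to 21.0). Neighbours in this order overlapped in their ranges except SNHG6 and SNHG15.

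With homoharringtonine 9 of the 10 hosts were above DMSO at every dose in fitted log2(Fold Change), and SNHG16 was below it. At 100 nM 6 members rose and 0 fell, at 1000 nM 8 rose and 1 fell, and at 10000 nM 8 rose and 1 fell, by edgeR's quasi-likelihood test with Benjamini-Hochberg adjustment (padj); members are said to have risen or fallen when padj was below 0.05 and the log2(Fold Change) lay outside -1 to 1. The share of all genes tested that rose was 15.6%, 21.5% and 23.7% at the 3 doses, and the share that fell was 19.4%, 21.0% and 23.4%. The median log2(Fold Change) of the members was 1.23, 1.48 and 2.14 at 100, 1000 and 10000 nM, against -0.03, -0.01 and -0.04 for all genes tested.

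**Figure D1:**
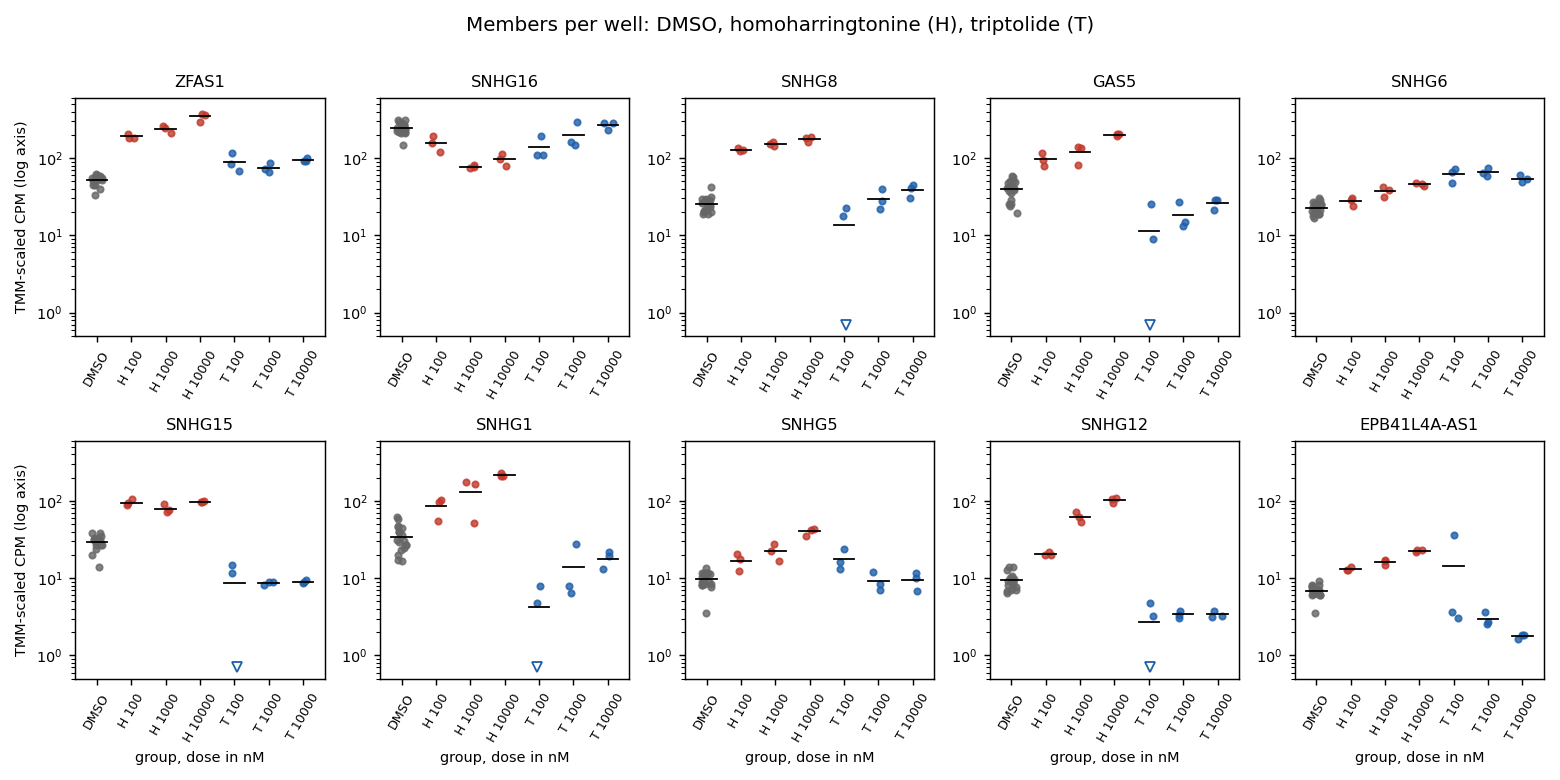
Each point is 1 well; the log axis gives library-size-scaled counts (CPM, with libraries scaled by the trimmed mean of M values, TMM), bars are means, H is homoharringtonine, T is triptolide and numbers are doses in nM. Open triangles mark wells with 0 counts, all in triptolide 100 nM replicate 2. With 10000 nM homoharringtonine 9 members lie above all DMSO wells and SNHG16 lies below them. At this dose 23.7% of all genes tested rose and 23.4% fell, and the share of all genes without overlap was not counted.

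SNHG12, which hosts SNORD99 and box H/ACA snoRNAs, had the largest rise of the 10 members at 1000 and 10000 nM. Its level, in TMM-scaled CPM, was 6.38 at the lowest, 8.92 at the median and 14.1 at the highest of the 18 DMSO wells. The homoharringtonine wells had 20.2, 19.9 and 22.1 CPM at 100 nM, 72.3, 62.8 and 52.9 CPM at 1000 nM and 108, 105 and 94.8 CPM at 10000 nM. All 9 wells were above all DMSO wells, and the 3 doses did not overlap with each other. The log2(Fold Change) was 1.19 ± 0.17 (SE, padj = 1.4e-06), 2.78 ± 0.16 (padj = 1.3e-13) and 3.47 ± 0.15 (padj = 3.7e-16) at the 3 doses. At 100 nM it was 0.97 with library sizes alone and 0.99 with the replicate number as a block, which ended that call.

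SNHG8, the host of SNORA24, had 18.9, 25.4 and 42.1 CPM at the lowest, median and highest DMSO well. It rose to 129, 134 and 124 CPM at 100 nM, 150, 160 and 144 CPM at 1000 nM and 184, 187 and 161 CPM at 10000 nM homoharringtonine. Most of this rise in counts was already present at the lowest dose, with log2(Fold Change) of 2.39 ± 0.12, 2.61 ± 0.12 and 2.81 ± 0.13 (padj = 1.7e-14, 4.3e-15 and 1.4e-15). In TPM, which is per transcript length, the mean was 152 in DMSO and 405, 520 and 664 at the 3 doses. That rise was smaller and grew more with dose. The quantified SNHG8 transcripts were longer on average with homoharringtonine, as given below.

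ZFAS1, named for the zinc finger gene ZNFX1 whose promoter it shares head to head, had 33.3, 54.6 and 62.2 CPM at the lowest, median and highest DMSO well. The homoharringtonine wells held 205, 184 and 182 CPM at 100 nM, 257, 246 and 214 CPM at 1000 nM and 364, 376 and 297 CPM at 10000 nM. No treated well overlapped with DMSO, and the log2(Fold Change) was 1.88 ± 0.11, 2.20 ± 0.11 and 2.71 ± 0.11 (padj = 1.2e-13, 8e-15 and 1.2e-16).

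GAS5, first known as a transcript that accumulates in growth-arrested cells and a textbook NMD target, had 19.3, 40.9 and 59.5 CPM at the lowest, median and highest DMSO well. It reached 116, 94.6 and 79.1 CPM at 100 nM, 81.5, 140 and 134 CPM at 1000 nM and 205, 208 and 190 CPM at 10000 nM homoharringtonine, all above DMSO. The log2(Fold Change) was 1.27 ± 0.20, 1.56 ± 0.20 and 2.30 ± 0.18 (padj = 3.8e-06, 2.4e-07 and 4.6e-11).

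SNHG1, the host of SNORD22 and of SNORD25 to SNORD31, spread more between wells: it had 16.5, 30.8 and 61.5 CPM at the lowest, median and highest DMSO well and 103, 96.2 and 55.6 CPM at 100 nM and 51.5, 164 and 177 CPM at 1000 nM homoharringtonine. At these doses 1 well each overlapped with DMSO, while 211, 209 and 228 CPM at 10000 nM were all above it. In the fit the log2(Fold Change) was 1.31 ± 0.27, 1.92 ± 0.29 and 2.62 ± 0.25 (padj = 0.00018, 2.8e-06 and 8.8e-10).

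SNHG15, the host of SNORA9, rose to a plateau. It had 14.05, 30.8 and 38.7 CPM at the lowest, median and highest DMSO well and 87.2, 93.0 and 104 CPM at 100 nM, 91.0, 76.0 and 70.9 CPM at 1000 nM and 99.3, 96.7 and 97.9 CPM at 10000 nM. Its log2(Fold Change) was 1.66 ± 0.13, 1.39 ± 0.14 and 1.67 ± 0.13 (padj = 7.2e-11, 4e-09 and 2.9e-11), and it had no slope over dose (-0.01 per 10-fold dose, padj = 0.94).

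SNHG5 and EPB41L4A-AS1 passed the fold threshold at the 2 higher doses. SNHG5, the host of SNORD50A and SNORD50B, had a DMSO median of 9.66 CPM and 20.3, 17.6 and 12.4 CPM, 16.7, 27.9 and 22.6 CPM, and 43.3, 42.5 and 34.9 CPM at the 3 doses, with log2(Fold Change) of 0.77 ± 0.15, 1.17 ± 0.15 and 1.99 ± 0.13 (padj = 0.0001, 2e-07 and 1.2e-12). Without replicate 2 the value at 1000 nM was 0.97 and no longer a call. EPB41L4A-AS1, the host of SNORA13, had a DMSO median of 7.0 CPM and 12.6, 12.9 and 14.1 CPM, 17.4, 16.5 and 14.7 CPM, and 21.7, 23.3 and 23.1 CPM, all above DMSO. Its log2(Fold Change) was 0.92 ± 0.11, 1.20 ± 0.11 and 1.66 ± 0.10 (padj = 1.4e-07, 1.2e-09 and 4.8e-13).

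SNHG6, the host of SNORD87, stayed under the fold threshold with homoharringtonine. It had a DMSO median of 21.7 CPM and 30.2, 24.0 and 28.7 CPM, 42.6, 31.5 and 38.8 CPM, and 47.1, 43.9 and 45.7 CPM at the 3 doses. The log2(Fold Change) was 0.29 ± 0.15 (padj = 0.10), 0.72 ± 0.15 (padj = 0.00017) and 0.98 ± 0.13 (padj = 3.1e-07), and at 10000 nM it was 1.01, a call, with DESeq2 and with median-ratio size factors.

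SNHG16, the host of SNORD1A, SNORD1B and SNORD1C, moved against the other members. It had 147, 245 and 314 CPM at the lowest, median and highest DMSO well, and 192, 156 and 121 CPM at 100 nM, 76.1, 82.3 and 73.9 CPM at 1000 nM and 113, 96.1 and 78.7 CPM at 10000 nM homoharringtonine. The 6 wells at the higher doses were all below DMSO. The log2(Fold Change) was -0.65 ± 0.15 (padj = 0.00066), -1.67 ± 0.15 (padj = 9.9e-10) and -1.39 ± 0.16 (padj = 2.5e-08), of which the last 2 were calls. Its reference transcript, of 498 bases, has 2 junctions behind the first reading frame, as in SNHG6, SNHG8 and ZFAS1. That transcript is not among those quantified here, and whether this feature bears on the fall was not tested.

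**Figure D2:**
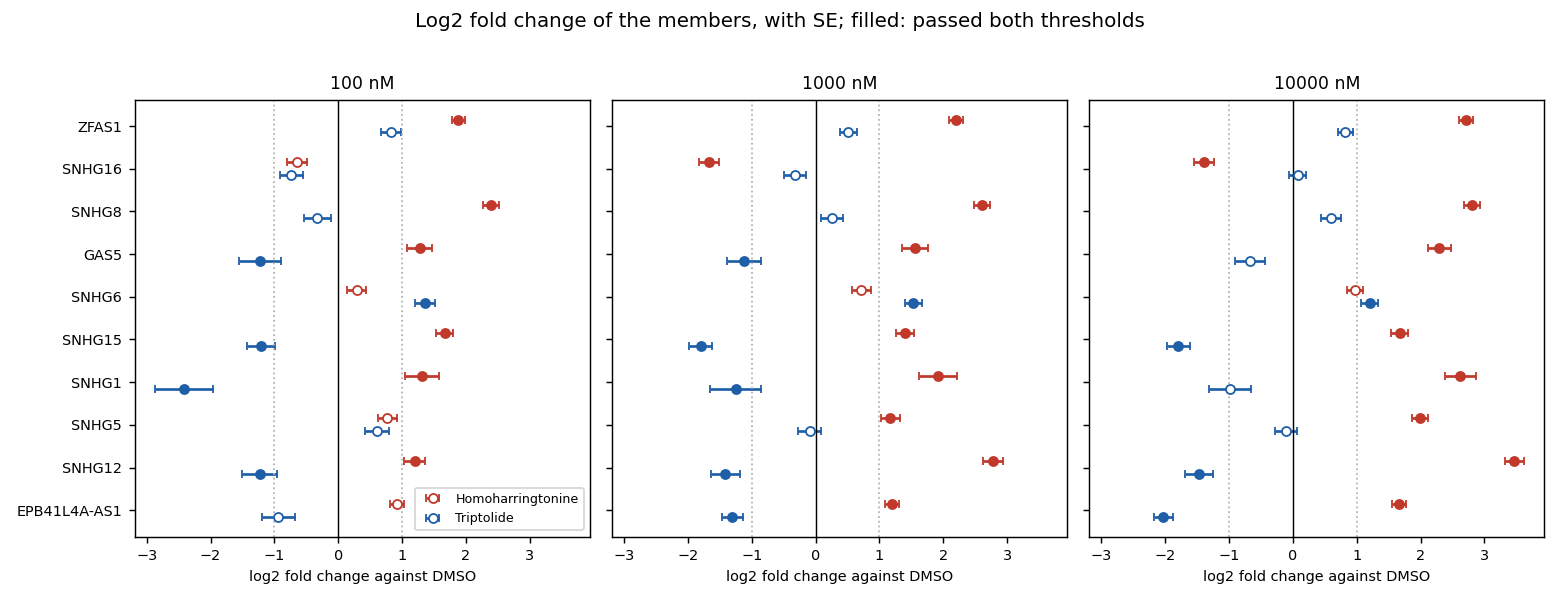
Log2 fold change against DMSO for each member at 100, 1000 and 10000 nM, with SE as bars; filled points passed both thresholds and dotted lines mark -1 and 1. Homoharringtonine values run from -1.67 for SNHG16 to 3.47 for SNHG12, and triptolide values from -2.42 for SNHG1 to 1.53 for SNHG6.

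With triptolide the hosts moved in both directions. At 100 nM 1 member rose and 4 fell, at 1000 nM 1 rose and 5 fell, and at 10000 nM 1 rose and 3 fell. Among all genes tested 11.4%, 13.9% and 16.4% rose and 21.0%, 30.4% and 30.3% fell at the 3 doses. The share of members that fell is thus near the background at 10000 nM, and the share that rose is not above it at any dose. The members' median log2(Fold Change) was -0.84, -0.72 and -0.39, against -0.16, -0.22 and -0.16 for all genes tested. Without libraries under 10 mil the counts were 1 and 5, 1 and 4, and 1 and 3.

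These directions are relative to the typical gene of the same well. With libraries scaled to the sum of the 13 mitochondrial mRNAs, whose share was higher in the triptolide wells, the median of all genes shifted by -1.65, -2.47 and -2.76 on the log2 scale at 100, 1000 and 10000 nM, and all 10 members were then below DMSO at each dose. With library sizes alone that median shifted by -0.33, -0.46 and -0.54. In bulk samples fewer cells and less RNA per cell cannot be told apart, and whether the total amount of RNA per cell changed was not tested.

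SNHG15 fell at all 3 doses from its DMSO level of 14.05 to 38.7 CPM, with 14.8, 0 and 11.5 CPM at 100 nM, 8.14, 8.89 and 8.98 CPM at 1000 nM and 9.45, 8.70 and 8.82 CPM at 10000 nM triptolide. The 0 came from the 0.0704 mil library. The 6 wells at the higher doses were all below DMSO. Against DMSO the log2(Fold Change) was -1.21 ± 0.22, -1.80 ± 0.18 and -1.79 ± 0.17 (padj = 3.6e-05, 3.8e-09 and 1.3e-09).

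SNHG12 likewise fell at all doses, from 6.38 CPM or more in DMSO to 3.27, 0 and 4.76 CPM at 100 nM, 3.36, 3.04 and 3.81 CPM at 1000 nM and 3.77, 3.27 and 3.14 CPM at 10000 nM, all below DMSO. Against DMSO the log2(Fold Change) was -1.23 ± 0.27, -1.41 ± 0.23 and -1.47 ± 0.22 (padj = 0.00047, 6.7e-06 and 1.4e-06); without replicate 1 the value at 100 nM was -0.94. EPB41L4A-AS1 had 3.06, 36.3 and 3.65 CPM at 100 nM, where the 36.3 CPM rest on 3 counts in the 0.0704 mil library, then 3.62, 2.69 and 2.53 CPM at 1000 nM and 1.87, 1.86 and 1.63 CPM at 10000 nM, the last all below DMSO. Its log2(Fold Change) was -0.94 ± 0.26 (padj = 0.0033), -1.30 ± 0.17 (padj = 1.8e-07) and -2.02 ± 0.15 (padj = 1.2e-11), and -1.08 at 100 nM without libraries under 10 mil.

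SNHG1 and GAS5 fell at the 2 lower doses and missed the fold threshold at 10000 nM. SNHG1 had 7.86, 0 and 4.76 CPM, 6.46, 7.95 and 27.6 CPM, and 19.3, 21.6 and 13.02 CPM, with log2(Fold Change) of -2.42 ± 0.45, -1.25 ± 0.40 and -0.98 ± 0.33 (padj = 6.1e-05, 0.0073 and 0.0099). GAS5 had 25.2, 0 and 8.97 CPM, 14.9, 13.1 and 26.9 CPM, and 28.3, 28.3 and 21.5 CPM, with log2(Fold Change) of -1.23 ± 0.33, -1.12 ± 0.26 and -0.67 ± 0.23 (padj = 0.0027, 0.00053 and 0.012). At 1000 nM replicate 3, the deepest of the 3 libraries at 57.4 mil, was the highest for both genes. Leaving out 1 library ended several of these calls: SNHG1 at 1000 nM was -0.95 without replicate 1 and -0.999 without replicate 2, and GAS5 was -0.95 at 1000 nM without replicate 2 and -0.74 at 100 nM without replicate 3. At 1000 nM the GAS5 call also ended with DESeq2 (-0.98), median-ratio size factors (-0.97) and the replicate block (-0.98), and the SNHG1 call with the block (-1.13). At 10000 nM SNHG1 was called without replicate 1 (-1.05) or replicate 2 (-1.15), and with library sizes alone SNHG1 (-1.52) and GAS5 (-1.21) were called.

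SNHG6 was the member called up with triptolide. Its wells had 47.7, 72.6 and 66.4 CPM at 100 nM, 58.7, 74.7 and 65.0 CPM at 1000 nM and 48.5, 53.6 and 60.6 CPM at 10000 nM, all above the highest DMSO well at 30.6 CPM. In TPM the wells ran from 133 to 418, 152 to 199 and 124 to 143 at the 3 doses, against 78.5 to 147 in DMSO. By that measure only the 1000 nM wells were all above DMSO, and the 10000 nM wells lay within its range. In the fit the log2(Fold Change) was 1.35 ± 0.16, 1.53 ± 0.14 and 1.21 ± 0.13 (padj = 1.3e-07, 2.9e-10 and 1.4e-08); scaled to the mitochondrial mRNAs it was -0.29, -0.93 and -1.60. The call also ended at 10000 nM with library sizes alone (0.66) and at 100 nM with the replicate number as a block (0.97).

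ZFAS1 was above DMSO in all 9 triptolide wells in TMM-scaled CPM, at 65.6 to 117 CPM. In TPM the wells ran from 172 to 275, 157 to 191 and 192 to 201 at the 3 doses, against 142 to 271 in DMSO. In the edgeR fit the log2(Fold Change) was 0.82 ± 0.16, 0.51 ± 0.13 and 0.82 ± 0.12, under the fold threshold (padj = 8.7e-05, 0.00093 and 9.5e-07). It was 0.51, 0.06 and 0.28 with library sizes alone and below 0 with mitochondrial scaling. At 100 nM it was 1.13, past the threshold, without replicate 3. SNHG16 had 194, 109 and 111 CPM, 159, 148 and 291 CPM, and 284, 288 and 231 CPM, with log2(Fold Change) of -0.73 ± 0.19 (padj = 0.0016), -0.32 ± 0.17 (padj = 0.097) and 0.07 ± 0.14 (padj = 0.64), and at 100 nM it was called without replicate 1 (-1.11), with library sizes alone (-1.05) and with the replicate block (-1.03). SNHG5 had log2(Fold Change) of 0.60 ± 0.19 (padj = 0.0077), -0.09 ± 0.18 (padj = 0.67) and -0.11 ± 0.17 (padj = 0.59). SNHG8 had -0.33 ± 0.21 (padj = 0.18), 0.26 ± 0.17 (padj = 0.18) and 0.60 ± 0.15 (padj = 0.0013).

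Set directly against homoharringtonine at the same dose, with no shared control wells, triptolide left most hosts lower. At 100 nM 6 members were lower and 1 was higher in triptolide, where 27.4% and 20.5% of all genes tested were. At 1000 nM 8 were lower and 1 higher, against 36.0% and 22.6% of all genes, and at 10000 nM 8 were lower and 1 higher, against 37.9% and 30.2%. SNHG12 differed most at 10000 nM, by -4.85 ± 0.11 on the log2 scale (padj = 2.4e-11), followed by EPB41L4A-AS1 at -3.60 ± 0.12 (padj = 2e-10), SNHG1 at -3.51 ± 0.15 (padj = 1.9e-09) and SNHG15 at -3.38 ± 0.08 (padj = 3e-11). GAS5 differed by -2.88 ± 0.11, SNHG8 by -2.12 ± 0.13, SNHG5 by -2.01 ± 0.17 and ZFAS1 by -1.80 ± 0.10.

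SNHG16 and SNHG6 were the exceptions. SNHG16 was higher in triptolide by 1.35 ± 0.27 at 1000 nM (padj = 0.0023) and 1.55 ± 0.14 at 10000 nM (padj = 7.9e-07), and at 100 nM the difference was -0.01 with a 95% interval of -0.45 to 0.44 (padj = 0.99). SNHG6 was higher by 1.13 ± 0.20 at 100 nM (padj = 8.4e-05), and by 0.80 and 0.32 at the higher doses, under the fold threshold. These higher calls did not hold under all scalings: scaled to the mitochondrial mRNAs no member was higher in triptolide, and with library sizes alone the counts higher were 0 at 100 and 10000 nM.

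Over the 9 homoharringtonine wells 8 members rose with dose and 1, SNHG16, fell, against 21.1% and 22.9% of all genes tested. The slope per 10-fold dose was 1.12 ± 0.11 on the log2 scale for SNHG12 (padj = 3.1e-05), 0.64 ± 0.19 for SNHG1, 0.60 ± 0.12 for SNHG5, 0.50 ± 0.11 for GAS5, 0.40 ± 0.07 for ZFAS1, 0.36 ± 0.06 for EPB41L4A-AS1, 0.33 ± 0.07 for SNHG6 and 0.20 ± 0.06 for SNHG8. SNHG16 had -0.38 ± 0.14 (padj = 0.041). Without replicate 2 of each dose 2 of these 9 slopes were called, and without replicate 3 there were 5.

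Over the 9 triptolide wells SNHG16 alone had a slope, upward at 0.36 ± 0.12 (padj = 0.049), so that 1 member rose and 0 fell against 7.09% and 18.1% of all genes tested; without any 1 of the 3 replicate numbers this count was 0. The slopes of both compounds differed for 6 members. In 5 the triptolide slope was lower, SNHG12 (-1.24 ± 0.17), SNHG5 (-0.94 ± 0.20), EPB41L4A-AS1 (-0.93 ± 0.21), SNHG6 (-0.43 ± 0.14) and ZFAS1 (-0.39 ± 0.14), against 21.5% of all genes, and in SNHG16 it was higher (0.79 ± 0.21), against 19.2% of all genes. Without replicate 2 there were 3.

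**Figure D3:**
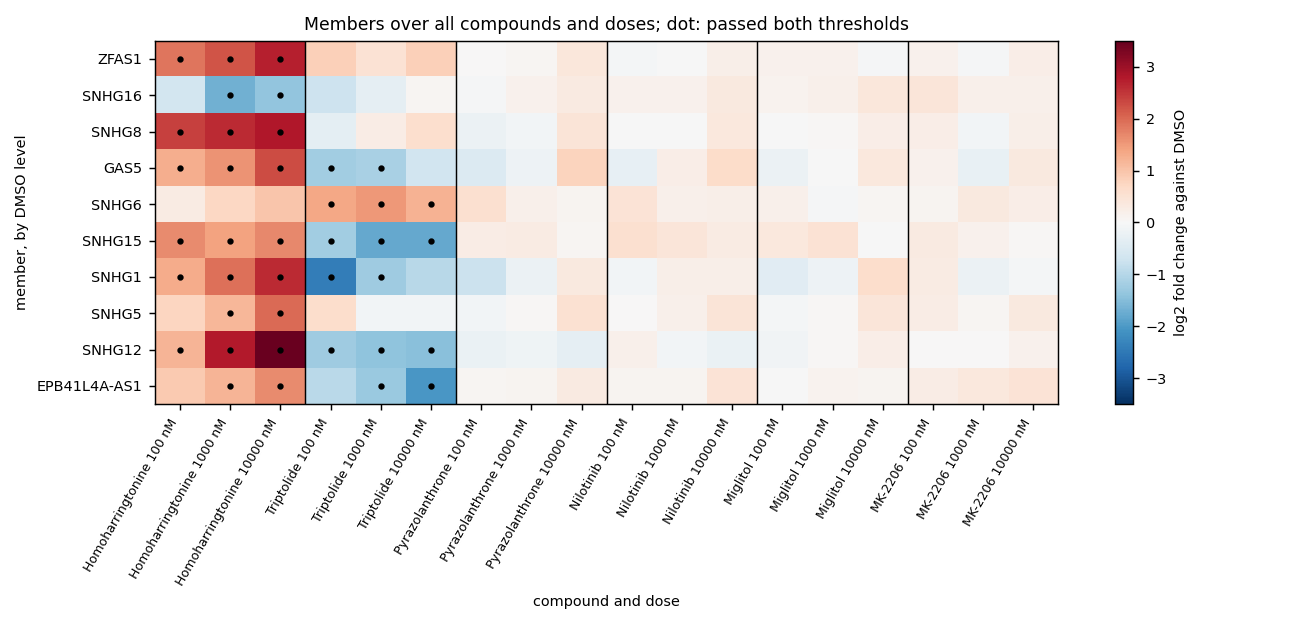
Colour gives the log2 fold change against DMSO of each member (rows, by DMSO level) for the 18 combinations of compound and dose (columns); dots mark calls. All dots lie in the homoharringtonine and triptolide columns, and the other 120 values lie between -0.76 and 0.79.

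None of the 10 hosts was called by edgeR at both thresholds with the other 4 compounds, in any of 12 combinations, nor by DESeq2. Few genes of any kind were: 0.931%, 0.0% and 1.19% of those tested with pyrazolanthrone at 100, 1000 and 10000 nM, 1.48%, 1.11% and 3.12% with nilotinib, 0.0%, 0.0% and 0.0% with miglitol, and 0.00541%, 0.303% and 0.713% with MK-2206. Where no gene was called by edgeR, the number at an unadjusted p under 0.05 was 1030 for 1000 nM pyrazolanthrone and 987, 1568 and 4234 for miglitol, and DESeq2 called 0 up and 4 down there and, for miglitol, 0 up and 1 down, 4 up and 5 down, and 0 up and 1 down. At padj under 0.05 with no fold threshold, 10 of the 120 values passed, and all 10 were rises. At 10000 nM pyrazolanthrone these were GAS5 (0.79 ± 0.20, padj = 0.015), SNHG5 (0.54 ± 0.14), SNHG8 (0.46 ± 0.14) and ZFAS1 (0.40 ± 0.12), where 3.29% of all genes rose by that rule. There GAS5, SNHG5 and ZFAS1 were above all DMSO wells, and how many other genes were was not counted. The members' median log2(Fold Change) at 10000 nM was 0.33 with pyrazolanthrone, 0.31 with nilotinib, 0.23 with miglitol and 0.21 with MK-2206. At 100 and 1000 nM it was, in that order, -0.07 and 0.06, 0.06 and 0.16, -0.01 and 0.04, and 0.24 and 0.04. The upward median at 10000 nM was thus shared by miglitol, with which edgeR called no gene, and its cause was not tested.

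At 10000 nM nilotinib GAS5 (0.65 ± 0.21), EPB41L4A-AS1 (0.47 ± 0.12) and SNHG5 (0.44 ± 0.15) passed, against 8.04% of all genes. The remaining 3 were EPB41L4A-AS1 at 10000 nM MK-2206 (0.49 ± 0.12, against 2.21%), SNHG15 at 100 nM nilotinib (0.57 ± 0.15, against 5.57%) and SNHG6 at 100 nM pyrazolanthrone (0.55 ± 0.15, against 3.25%). With 1000 nM miglitol the SNHG15 wells, at 39.8 to 49.5 CPM, were above all DMSO wells, but the difference did not pass (0.52 ± 0.15, padj = 0.23).

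The deposited tables also give for each gene an abundance-weighted transcript length, the mean length of its annotated transcripts weighted by their estimated share, which shows shifts between isoforms that a gene count does not hold. Wells with fewer than 10 counts for a gene were left out. Over 180 combinations of member, compound and dose, 17 differed from DMSO with homoharringtonine, 5 with triptolide and 0 with the other 4 compounds. The test was a two-sided exact permutation test with Benjamini-Hochberg adjustment over all 180. Genes outside the members were not tested for length, so these counts have no share of all genes beside them.

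SNHG12 averaged 1007 ± 68 bases (SD, n = 17) in DMSO and 724 ± 18, 700 ± 7.3 and 695 ± 7.3 bases (n = 3 each) at the 3 homoharringtonine doses, with no overlap (exact permutation padj = 0.011 each). SNHG5 went from 581 ± 26 (n = 17) to 484 ± 9.9, 457 ± 5.7 and 456 ± 4.0 bases, SNHG1 from 1093 ± 76 to 884 ± 15, 917 ± 37 and 909 ± 13 bases, and SNHG15 from 979 ± 21 (n = 17) to 916 ± 14, 914 ± 35 and 911 ± 6.0 bases. SNHG16 went from 2094 ± 91 to 1809 ± 99 and 1700 ± 107 bases at the 2 higher doses. SNHG8 was the member that became longer, from 438 ± 29 to 578 ± 22, 598 ± 17 and 598 ± 6.7 bases, and it became shorter with 10000 nM triptolide (381 ± 16 bases, exact permutation padj = 0.039).

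SNHG5 was also shorter with triptolide, at 493 ± 26 and 493 ± 8.5 bases at 1000 and 10000 nM, and so was SNHG12 at 10000 nM (874 ± 35 bases) and at 100 nM (809 ± 86 bases, n = 2). GAS5 depended on 1 library: DMSO replicate 10 had 423 bases, and without libraries under 10 mil GAS5 went from 674 ± 18 (n = 17) in DMSO to 622 ± 3.8, 613 ± 2.7 and 615 ± 3.4 bases with homoharringtonine and to 615 ± 4.9 (n = 2), 619 ± 9.0 (n = 2) and 609 ± 1.3 bases with triptolide, all 6 past the test. The counts were then 20 with homoharringtonine and 9 with triptolide.

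**Figure D4:**
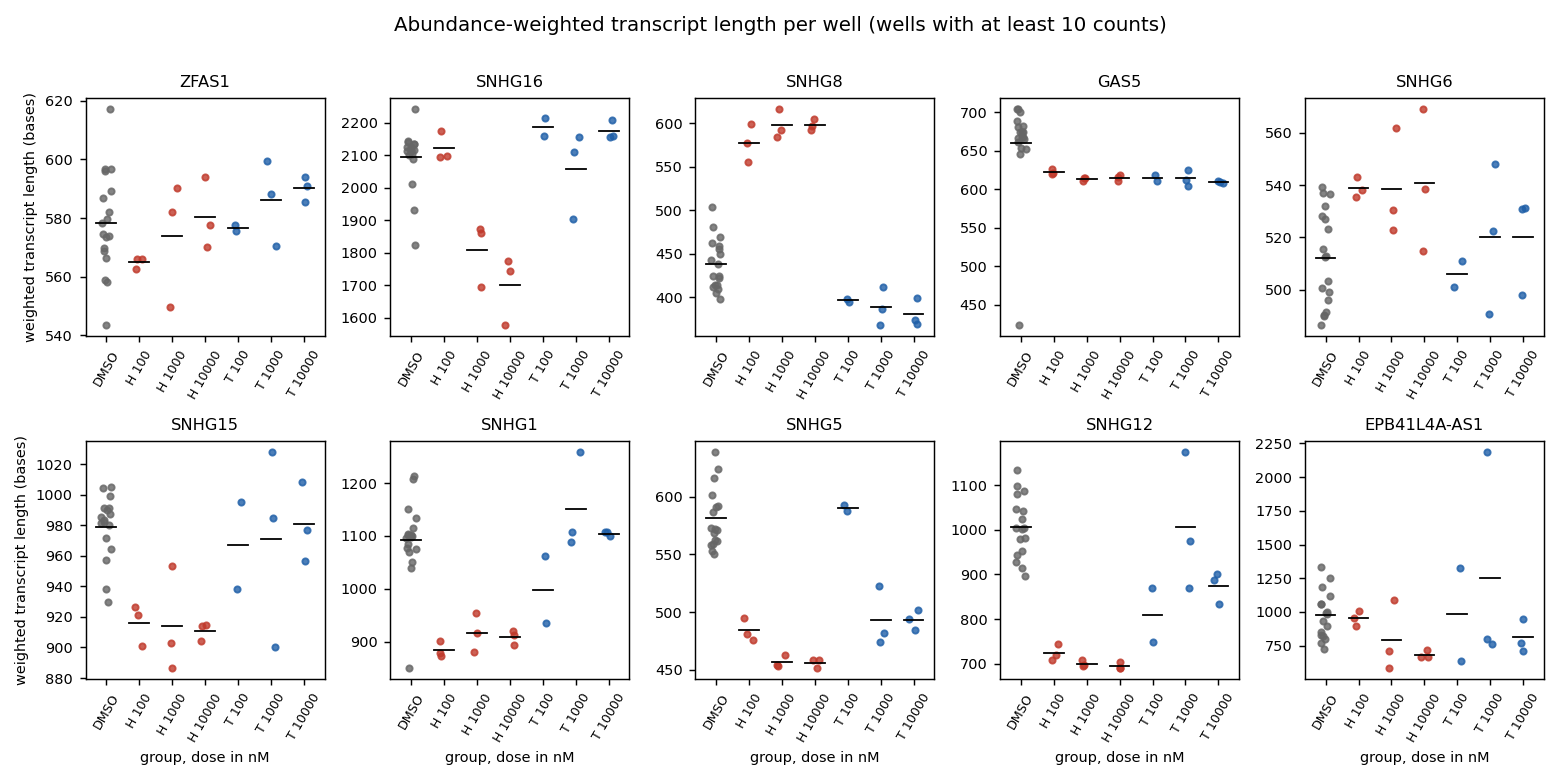
Abundance-weighted transcript length in bases per well for DMSO, homoharringtonine (H) and triptolide (T) at doses in nM; bars are means, and each panel has its own axis, which does not start at 0. SNHG12, SNHG5, SNHG1 and SNHG15 are shorter and SNHG8 is longer with homoharringtonine, and the lowest DMSO point of GAS5, at 423 bases, is DMSO replicate 10.

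Levels of some members moved with a property of the library. The mean fragment length, inferred from the difference between gene length and effective length in the deposited tables, ran from 144 to 217 bases over the 18 DMSO wells. Log2 CPM of SNHG1 rose with it (Pearson r = 0.74, permutation padj = 0.0051; Spearman rho = 0.73, permutation padj = 0.0062; r = 0.75 without the 2 wells farthest from the median). Among 20 such relations, GAS5 passed by rank only (rho = 0.67, permutation padj = 0.016; r = 0.54, padj = 0.086; r = 0.63 without 2 wells), as did SNHG5 (rho = 0.79, permutation padj = 0.0038; r = 0.47, padj = 0.14; r = 0.51 without 2 wells).

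The other 7 members passed with neither, and for ZFAS1 r was -0.42 (permutation padj = 0.18). Fragment length overlapped between groups, with medians of 184, 206 and 193 bases for homoharringtonine, 172, 182 and 185 for triptolide and 189 for DMSO. With fragment length as a covariate, chosen after seeing the data, the member counts against DMSO were 6 up and 0 down, 8 and 1, and 9 and 1 for homoharringtonine and 1 up and 4 down, 1 and 5, and 1 and 3 for triptolide.

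**Figure D5:**
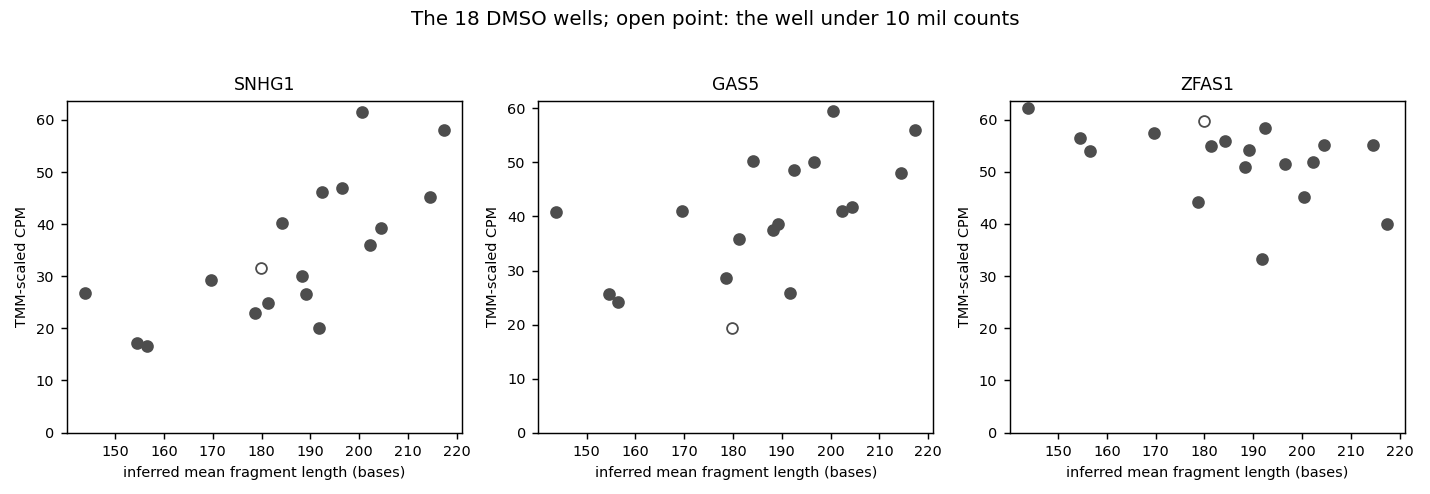
TMM-scaled CPM against the inferred mean fragment length in bases for SNHG1, GAS5 and ZFAS1 in the 18 DMSO wells; the open point is replicate 10, with 0.459 mil counts. SNHG1 spans 16.5 to 61.5 CPM and is low at short fragment lengths, while ZFAS1 spans 33.3 to 62.2 CPM.

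Other noncoding snoRNA hosts moved in both directions. Their rises with homoharringtonine were near the share of all genes, as were their rises and falls at the higher triptolide doses. For this list and those below, 15.6%, 21.5% and 23.7% of all genes tested rose and 19.4%, 21.0% and 23.4% fell with homoharringtonine. With triptolide 11.4%, 13.9% and 16.4% of all genes rose and 21.0%, 30.4% and 30.3% fell. Of 20 further noncoding hosts 19 were tested; with homoharringtonine 3 rose and 6 fell at 100 nM, 4 and 8 at 1000 nM and 5 and 6 at 10000 nM, with a median log2(Fold Change) of -0.21, -0.71 and -0.83. SNHG32 (1.57, 2.20 and 2.67 at the 3 doses), SNHG17 (1.43 at 100 nM and 1.90 at 10000 nM) and SNHG7 (1.61 at 1000 nM) were the largest rises, and SNHG18 (-2.63, -2.45 and -2.36), SNHG26 (-2.80 and -3.09 at the higher doses) and SNHG28 (-2.37 at 100 nM) the largest falls. With triptolide 5 rose and 5 fell at 100 nM and 3 rose and 6 fell at each higher dose, led by SNHG22 (2.38, 1.80 and 1.16), SNHG21 (1.49 at 100 nM) and SNHG14 (1.47 and 1.65 at the higher doses) upward and by SNHG3 (-3.12 and -2.82 at the higher doses), SNHG26 (-3.12) and SNHG18 (-2.77) at 100 nM, SNHG17 (-2.41 at 1000 nM) and SNHG30 (-2.43 at 10000 nM) downward.

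The 40 protein-coding hosts, mostly ribosomal proteins and translation factors whose spliced mRNA is translated in full, had both rises and falls with homoharringtonine. Of them 4 rose and 1 fell, 4 rose and 2 fell, and 4 rose and 3 fell at the 3 doses, with medians of 0.30, -0.08 and -0.22. EIF4A2, an RNA helicase of translation initiation, was the largest rise at each dose (1.97, 2.78 and 3.51), joined by WDR43 (1.55 at 100 nM) and RABGGTB (1.95 and 2.66 at the higher doses), and the chaperone HSPA8 (-1.52, -1.62 and -1.48) and the pseudouridine synthase DKC1 (-1.72 and -2.12 at the higher doses) fell. With triptolide 3, 7 and 15 rose and 4 fell at each dose, with medians of 0.53, 0.57 and 0.73. RPL12 (1.18) and RPS2 (1.15) at 100 nM, RPS2 (1.43) and TNPO2 (1.37) at 1000 nM and RPS12 (1.55) and RPSA (1.51) at 10000 nM rose most, while HSPA8 (-3.04, -3.80 and -4.06), WDR43 (-3.96 and -3.91 at the higher doses) and RABGGTB (-2.40 at 100 nM) fell. The rises at triptolide are relative to the typical gene, as above.

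Of the 7 NMD factors, several are known to have mRNAs that are NMD targets themselves. With homoharringtonine 1 of the 7 rose at each dose, UPF3B (1.55, 1.70 and 1.71), and 0 fell, where 15.6%, 21.5% and 23.7% of all genes rose. Their medians were 0.48, 0.64 and 0.79. With triptolide 0 rose and 4, 2 and 2 fell, among them UPF2 (-1.62, -1.40 and -1.34), the kinase SMG1 (-1.59 at 100 nM) and the endonuclease SMG6 (-1.53 at both higher doses). Of 5 long noncoding RNAs retained in the nucleus 4 were tested, and 3 of these fell at each homoharringtonine dose, with medians of -1.28, -1.34 and -1.28. MALAT1 had -1.68 and -1.42 at the lower doses, NEAT1 -1.44, -1.72 and -1.77, and TUG1 -1.29 at 10000 nM. With triptolide TUG1 fell at 100 nM (-1.55), 0 were called at 1000 nM, and at 10000 nM NEAT1 rose (1.23) and KCNQ1OT1 fell (-1.19).

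The annotation puts 12 genes on the opposite strand over a member, and how the authors' counting used strand is not given in the sources used here, so reads of overlapping exons could be shared. ZNFX1 overlaps ZFAS1 by 249 bases and had a DMSO median of 133 CPM; it moved unlike ZFAS1, with log2(Fold Change) of 0.49, 0.03 and -0.46 for homoharringtonine and -0.28, -3.84 and -3.52 for triptolide. PRSS12, over SNHG8 for 5279 bases, had 8.97 CPM and fell with homoharringtonine (-1.35, -1.36 and -1.77) while SNHG8 rose; with triptolide it had 0.53, 1.09 and 1.32.

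EPB41L4A, over all 4293 bases of EPB41L4A-AS1, had 3.60 CPM and fell at the lower homoharringtonine doses (-1.23 and -1.15, then -0.82) and with triptolide (-2.58, -2.25 and -1.66). ZBTB37, which overlaps GAS5 by 801 bases, had 12.9 CPM and values of -0.08, -0.41 and -0.34 with homoharringtonine and -2.61, -1.67 and -1.84 with triptolide. TRNAU1AP, which overlaps SNHG12 by 8 bases, was within -0.17 and 0.29 in all 6 comparisons. ST6GALNAC2, over SNHG16, had a DMSO median of 1.11 CPM and values of -1.65, -3.78 and -2.16, and -0.54, -1.08 and -0.45. MCMDC2, over SNHG6, had 0.11 CPM and values of 0.01, -0.68 and -0.47, and 0.997, 1.75 and 0.93, and GAS5-AS1 (0.07 CPM), ST6GALNAC1 and the pseudogene ENSG00000267084 (0.0 CPM each) were too low to be tested.

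Among 9523 other genes tested in all 18 combinations with a mean of at least 10 CPM in DMSO, those whose log2(Fold Change) lay closest to the members' median over those 18 combinations included ECD, ZNF621, CHMP4C and CAAP1, at Euclidean distances of 0.67, 0.74, 0.77 and 0.89. ECD had log2(Fold Change) of 1.01, 1.44 and 1.89 with homoharringtonine and -1.13, -0.69 and -0.51 with triptolide. All 18 values share the same DMSO wells.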

How the data were processed

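RNA was extracted with RNeasy, and poly(A) RNA libraries were made with the stranded TruSeq kit. For each of 72 wells the authors deposited a table with expected counts, TPM, FPKM and a weighted transcript length per gene; RSEM, HTSeq, DESeq2 and GRCh38 are listed in the submitters' processing notes, and the RSEM version, annotation release and strand setting are not given in the sources used here. The deposited length is in bases, the deposited TPM values are scaled to transcript length and library, and the deposited FPKM values were used for the order of levels only. Expected counts were rounded, 92 spike-in rows were left out, and symbols came from GENCODE v44 (56104 of 60279 genes matched).

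Each compound and dose (3 wells) was compared with 18 DMSO wells by edgeR 4.0.16 (R 4.3.3; TMM, filterByExpr, quasi-likelihood test) across all genes, with Benjamini-Hochberg adjustment over the genes tested; SE is the log2 fold change divided by the square root of F, and 95% intervals are 1.96 SE each side. A call needed padj under 0.05 and a log2 fold change beyond 1; slopes on log10 dose needed padj only. DESeq2 1.42.0, other scalings and filters, wells left out and a block were alternatives. Functions were tested on simulated data. Wells are separate samples of 1 line, and nothing says that they came from separate cultures, so p-values measure the spread between these wells, which may be technical. Permutation tests used all splits, or 100000 resamples for relations over 18 wells. The members, gene lists and motif rules were chosen with earlier results of these data known, the start-site motif after seeing the sequences. From each list the 2 largest rises and 2 largest falls among calls were named, all genes opposite a member, and the 5 nearest profiles, except a few genes that are not reported here. Deviations from group means correlated at -0.05 on average (-0.72 to 0.67) over 52 same-numbered pairs of treated and DMSO wells. Over 104 other pairs they correlated at 0.03 (-0.67 to 0.72). Deviations within a group sum to 0, so the 2 averages are not separate, and a pairing by replicate number was neither seen nor excluded. Depth ran from 0.0704 to 68.3 mil expected counts, and shallow libraries give the least precise values.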

Additional observations from a re-analysis of the deposited data

Results flagged for a closer look

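For 6 members the slope on log10 dose differed between triptolide and homoharringtonine by the interaction test (edgeR, padj under 0.05 over all genes tested). Triptolide minus homoharringtonine, the slope difference was -1.24 for SNHG12, -0.94 for SNHG5, -0.93 for EPB41L4A-AS1, -0.43 for SNHG6, -0.39 for ZFAS1 and 0.79 for SNHG16. Groups of 3 wells and of 18 wells were not tested for single wells that stand apart.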

How the results depend on the processing

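Of the single-member repeats and 1 repeat of the order of DMSO levels in FPKM, 701 kept their side of the call rule or their order. Of the rest, 32 gained a call, 15 lost one and 3 reversed, and the cause was not tested. The 3 were SNHG6 with triptolide under mitochondrial scaling, at -0.29, -0.93 and -1.60. Under that scaling the triptolide counts up were 0, 0 and 0 and down 8, 9 and 10 at the 3 doses, nilotinib gave 1, the members higher in triptolide than in homoharringtonine were 0, 0 and 0, and the slopes were 4 for homoharringtonine and 6 for triptolide. With library sizes alone 0 rose and 5 fell at 10000 nM triptolide, 0 members were higher in triptolide at 100 and 0 at 10000 nM, and 0 had a triptolide slope. At 100 nM, 0 were higher with median-ratio size factors and 0 with no filter on low counts. With DESeq2 there were 2 triptolide slopes.

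With at least 10 counts in every well, which leaves fewer members because DMSO replicate 10 is shallow, 4 and 5 rose at 1000 and 10000 nM homoharringtonine and 2 and 1 fell at 1000 and 10000 nM triptolide; at 100 nM triptolide no member was left. Without a fold threshold 1 fell at 100 nM homoharringtonine, 3, 2 and 3 rose and 5 fell at 10000 nM with triptolide, pyrazolanthrone gave 5, nilotinib 4 and MK-2206 1, and 2 and 2 were higher in triptolide at 1000 and 10000 nM. With the replicate number as a block, 0 rose at 100 nM and 3 fell at 1000 nM triptolide, miglitol gave 1, 0 were higher in triptolide at 100 nM and 0 had a triptolide slope; the block changed no other count by more than 1.5 times. Whether the numbers pair the wells was not settled.

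Leaving out each replicate number in turn gave 1 to 2 members up at 100 nM and 3 to 5 down at 1000 nM triptolide, 0 to 1 with pyrazolanthrone, 0 to 2 with nilotinib, 0 to 1 and 0 to 2 higher in triptolide at 100 and 1000 nM, 2 to 7 homoharringtonine slopes, 0 to 0 triptolide slopes and 3 to 5 slope differences. For weighted transcript length these gave 0 to 0 pairs with each compound, a design whose smallest adjusted p is above 0.05 and which says nothing of stability; without libraries under 10 mil triptolide gave 9 pairs. Shallow libraries limit the 100 nM triptolide values most.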
